A study of Mus musculus with 6 samples.

Results

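The genes described here are 28 genes of GABA and glycine transmission: the enzymes that make and break down GABA, the transporters that load and clear GABA and glycine, the receptor subunits, and a pair of postsynaptic organisers. They were chosen by gene name in the table of read counts per gene from adult brain, which lists 53801 genes, and each of the 28 names had a single row. All 28 reached the minimum of 10 counts summed over the samples and were among the 23975 genes tested. The rule itself uses no measured value, but the list was drawn up with earlier results of these data known. RNA-seq compared one brain hemisphere of each of 3 Bahd1-WT mice (genotype Bahd1+/+) with that of each of 3 Bahd1-KO mice (genotype Bahd1-/-). All mice were C57BL/6, adult, about 70 weeks old, and the labels give no treatment beyond the knock-out. Bahd1 codes for a protein of silenced chromatin, and its deletion here is in the whole animal and not in one cell type. The Bahd1-KO mice came from crosses of heterozygous Bahd1-Het1 mice, and because part of the Bahd1-null pups die around birth according to the study, the adult Bahd1-KO mice were survivors. Values below are always given in the order of replicates 1, 2 and 3 of a genotype.

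GABA and glycine are the inhibitory transmitters of the vertebrate central nervous system. GABA is made from glutamate by glutamate decarboxylases, packed into vesicles by the same carrier that packs glycine, and cleared by plasma membrane transporters on neurons and astrocytes. GABA-A and glycine receptors are chloride channels built of subunits around a pore, with the subunit mix setting where in the cell and how long the channel acts, while GABA-B receptors act through G proteins. Glycine acts as a fast transmitter mainly in brainstem and spinal cord, and GABA throughout the brain. Most GABA-A subunit genes sit in clusters that arose by duplication of an ancestral gene set.

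The libraries held between 42297150 and 93557948 counts. Bahd1 itself was counted 1383, 844 and 1099 times in the Bahd1-WT libraries against 0, 14 and 1 times in the Bahd1-KO libraries, which matched every label. Between 100 and 77092 counts stood behind every member in every library. The library of Bahd1-KO replicate 2 stood apart: it was the Bahd1-KO library farthest from the Bahd1-WT mean in 25 of the 28 members, and replicate 3 was farthest in the other 3. The median distance of a member from the Bahd1-WT mean was 0.21 on the log2 scale in Bahd1-KO replicate 1, 0.93 in replicate 2 and 0.43 in replicate 3. Results are therefore also given with single libraries left out. Because these are bulk samples of a hemisphere, fewer cells of a type and less RNA per cell cannot be told apart for any gene. The labels do not say that numbered replicates share a litter. The p-values set the genotype difference against the spread between libraries of the same genotype, in these 6 mice.

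The receptor subunits are shown first by the stretch of coding sequence for the second membrane-spanning segment, which lines the channel. This stretch is 72 bases long, or 24 codons, and was found in 13 of the subunits by a shared run of letters (the search run was not found in Gabre, Gabrq and Glrb). It is shown because the subunits differ in base composition here even where they code for nearly the same pore, and because the changes with genotype are set against the composition of the whole transcript below. Sequences are from GRCm38 and the GENCODE M21 annotation, 5′ to 3′ on the coding strand. Capitals mark each G or C at the third position of a codon, of which there are 8 of 24 in Gabrg1, 7 in Gabra2, 12 in Gabra6, 16 in Gabrb1, 16 in Gabrd, 11 in Glra3 and 16 in Glra1. In the GABA-A subunits the stretch is split over 2 exons, so the coordinates given span an intron.
Gabrg1: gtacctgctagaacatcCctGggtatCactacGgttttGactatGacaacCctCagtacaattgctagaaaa
Gabra2: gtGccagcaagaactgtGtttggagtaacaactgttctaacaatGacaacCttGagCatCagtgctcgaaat
Gabra6: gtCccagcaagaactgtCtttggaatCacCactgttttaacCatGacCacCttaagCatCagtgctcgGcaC
Gabrb1: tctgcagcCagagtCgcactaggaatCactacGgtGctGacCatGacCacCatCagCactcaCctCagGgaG
Gabrd: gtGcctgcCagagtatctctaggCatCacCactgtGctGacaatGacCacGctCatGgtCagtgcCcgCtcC
Glra3: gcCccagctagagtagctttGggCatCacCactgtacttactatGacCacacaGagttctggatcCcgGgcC
Glra1: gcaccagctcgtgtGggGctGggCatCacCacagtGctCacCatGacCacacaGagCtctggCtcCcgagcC
These lie at chr5:70774433-70777139 on the minus strand for Gabrg1, chr5:70973578-71006128 on the minus strand for Gabra2, chr11:42315152-42316451 on the minus strand for Gabra6, chr5:72108815-72121998 on the plus strand for Gabrb1, chr4:155386097-155386424 on the minus strand for Gabrd, chr8:56089115-56089186 on the plus strand for Glra3 and chr11:55527267-55527338 on the minus strand for Glra1. Gabra2 and Gabra6 share 60 of the 72 bases, Glra1 and Glra3 share 58, and Gabrd shares 44 with Gabra2 and 46 with Gabrg1. Over the whole coding sequence, G or C stood at 42.6% of these codon positions in Gabrg1, 45.7% in Gabra2, 48.6% in Gabra6, 50.4% in Glra3, 59.3% in Gabrb1, 71.0% in Gabrd and 71.5% in Glra1. Gabrb1, at -0.69 on the log2 scale, had as many G or C letters at these positions of the stretch shown as Gabrd, at 1.22, and Glra1, at 0.79, so the stretch alone did not follow the order of the changes. The highest share among the members, 84.6%, was in Slc32a1, the vesicle carrier.

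Promoters are shown for 3 members that differ in their number of CG pairs. Of the 28 genes, 25 had an entry in the RefSeq promoter sequences of GRCm38.p6, which run from 250 bases before to 50 bases after the gene start, and no entry was found for Abat, Gabrd and Glra1. Capitals mark CG pairs, the letters searched, which read the same on both strands. The Slc32a1 promoter (chr2:158610508-158610807, plus strand) holds 17 CG pairs, the Gabrb1 promoter (chr5:71657671-71657970, plus strand) 25 and the Gabrg1 promoter (chr5:70842568-70842867, minus strand) 3.
Slc32a1: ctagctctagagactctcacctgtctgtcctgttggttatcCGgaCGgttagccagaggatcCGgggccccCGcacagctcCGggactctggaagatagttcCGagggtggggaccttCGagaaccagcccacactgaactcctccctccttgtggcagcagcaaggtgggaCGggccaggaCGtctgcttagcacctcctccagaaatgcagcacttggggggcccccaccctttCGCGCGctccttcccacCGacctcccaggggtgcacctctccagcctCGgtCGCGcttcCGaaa
Gabrb1: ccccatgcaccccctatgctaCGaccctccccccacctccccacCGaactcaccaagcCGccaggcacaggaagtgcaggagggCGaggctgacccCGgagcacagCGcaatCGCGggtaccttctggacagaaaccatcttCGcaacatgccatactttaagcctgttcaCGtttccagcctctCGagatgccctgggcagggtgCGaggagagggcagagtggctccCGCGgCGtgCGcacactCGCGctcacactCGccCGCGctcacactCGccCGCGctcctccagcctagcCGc
Gabrg1: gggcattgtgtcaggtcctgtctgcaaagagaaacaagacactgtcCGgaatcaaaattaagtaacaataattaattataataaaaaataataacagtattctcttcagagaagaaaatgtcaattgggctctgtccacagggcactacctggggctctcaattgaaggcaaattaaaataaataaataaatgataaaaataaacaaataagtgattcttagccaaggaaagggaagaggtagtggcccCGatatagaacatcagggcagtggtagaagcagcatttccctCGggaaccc
At least 10 CG pairs were found in 80.0% of the 25 member promoters and in 43.9% of the 27025 promoters of all genes, with medians of 14 and 7. The letters TATAAA, on either strand, were in 16.0% of member promoters and 14.2% of all. For both counts, members were read from the entry nearest the gene start and all genes from their first listed entry. All genes were taken with no filter for gene type or expression. Gabrb1 and Gabrg1, both lower in Bahd1-KO, had 25 and 3 CG pairs, in a range over the members from 0 in Gabra3 to 46 in Gabbr2. Across the 25 members, Spearman's rho between the promoter's GC content and the log2 fold change was 0.34, as a description over genes that share the same 6 libraries.

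Levels can be compared between genes only per length, here as CPM per kb of exon, where CPM are counts scaled to a common library size by the TMM method. On this scale Gabbr1, a GABA-B subunit, was highest in Bahd1-WT at 99.0 ± 4.8 (SD, n = 3), followed by Glrb, the glycine receptor beta subunit, at 96.4 ± 11.1, and Gad2 at 92.7 ± 8.7. The lowest was Gabre, the GABA-A epsilon subunit, at 0.479 ± 0.060, which is 207-fold below Gabbr1. Of the 27 pairs of neighbours in this order, 21 had overlapping Bahd1-WT libraries, so most adjacent ranks are not separated. In Bahd1-KO, Gabbr1 stayed highest at 98.9 ± 4.8 and Gabre lowest at 0.559 ± 0.081. Slc32a1 moved from rank 21 to rank 13, with 6.18 ± 1.61 in Bahd1-WT and 22.6 ± 17.4 in Bahd1-KO, and Slc6a11 from rank 9 to rank 5.

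**Figure D1:**
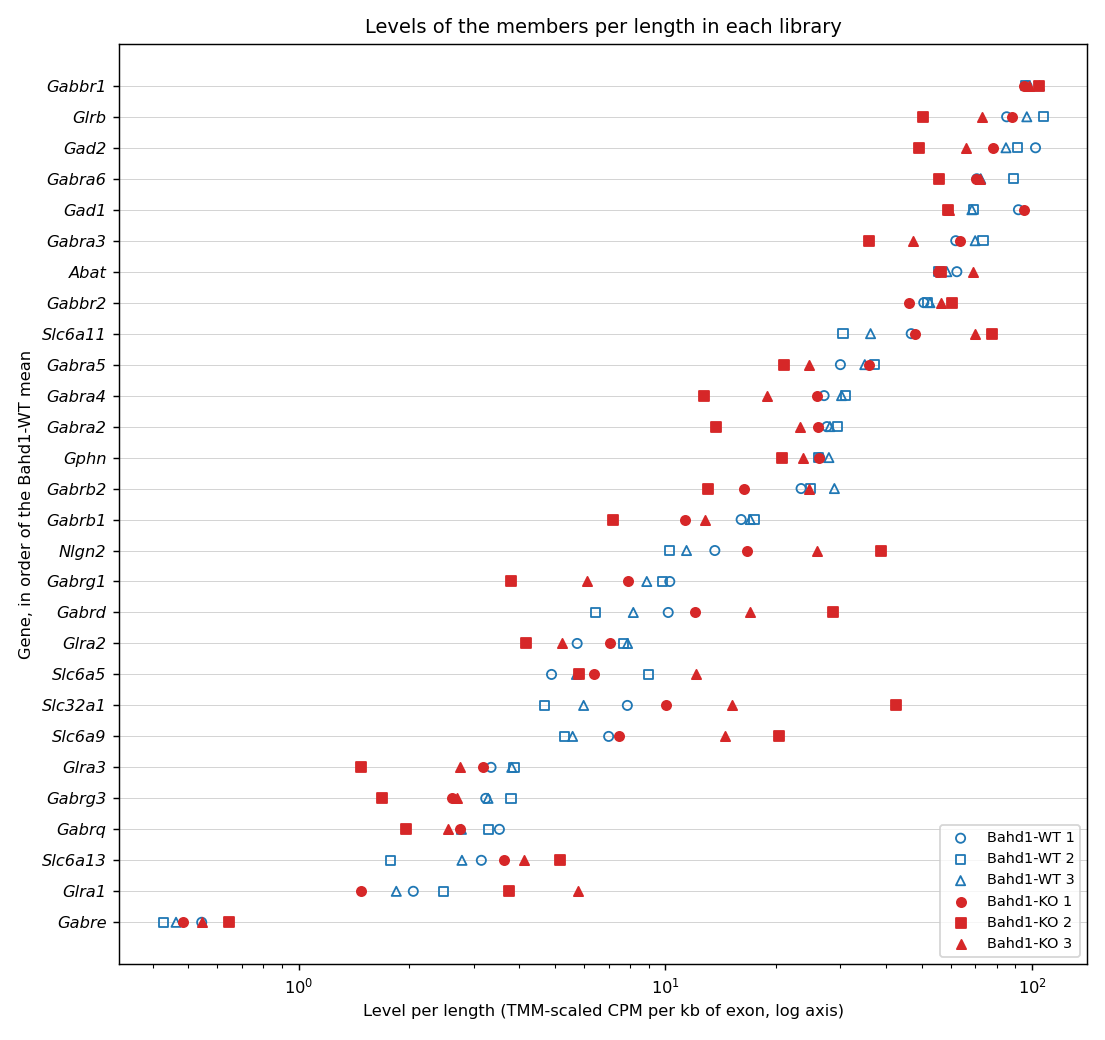
Level of each member per length (TMM-scaled CPM per kb of exon, log axis) in each of the 6 libraries, genes in order of the Bahd1-WT mean. Open blue symbols are Bahd1-WT and filled red symbols Bahd1-KO, with replicates 1, 2 and 3 as circles, squares and triangles. Levels run from 0.479 for Gabre to 99.0 for Gabbr1 in Bahd1-WT, and the red squares of Bahd1-KO replicate 2 lie farthest from the blue symbols in most rows.

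No member passed an adjusted p-value of 0.05 in edgeR's quasi-likelihood test, a level reached by 2 genes (0.00834%) of all tested, one of them Bahd1. At an unadjusted p under 0.05, 6 of the 28 were higher in Bahd1-KO, against 19.9% of all genes tested, and 5 were lower, against 12% of all genes, which makes 11 in either direction, against 31.8%. The 6 were Slc32a1, Slc6a11, Slc6a13, Gabrd, Nlgn2 and Slc6a9, and the 5 were Gad2, Gabra4, Gabrb1, Gabrg1 and Gabrg3. The number lower at this level was 12 without Bahd1-KO replicate 1, where 18.4% of all genes were lower. It was 5 without Bahd1-KO replicate 2 (9.16% of all genes) and 5 without replicate 3 (8.87%). It was 2 without Bahd1-WT replicate 1 (5.97% of all genes), 1 without Bahd1-WT replicate 2 (4.73%) and 3 without Bahd1-WT replicate 3 (8.26%). The number higher ranged from 5 to 7 in these fits, against 24.4%, 14.9% and 18.2% of all genes without Bahd1-KO replicates 1, 2 and 3 and 17.7%, 13.4% and 15.8% without those of Bahd1-WT. All 3 Bahd1-KO libraries lay above all 3 Bahd1-WT libraries in 6 members (20.6% of all genes) and below them in 8 members (19.3% of all genes), and the genotypes overlapped in 14. Fitted values were above 0 in 11 members, against 46.6% of all genes, and the median log2 fold change was -0.21 over the members and -0.061 over all genes tested. Over the 16934 protein-coding genes tested, 51.5% had a fitted value above 0, 25.97% were higher and 12.2% lower at an unadjusted p under 0.05, and the median was 0.029.

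**Figure D2:**
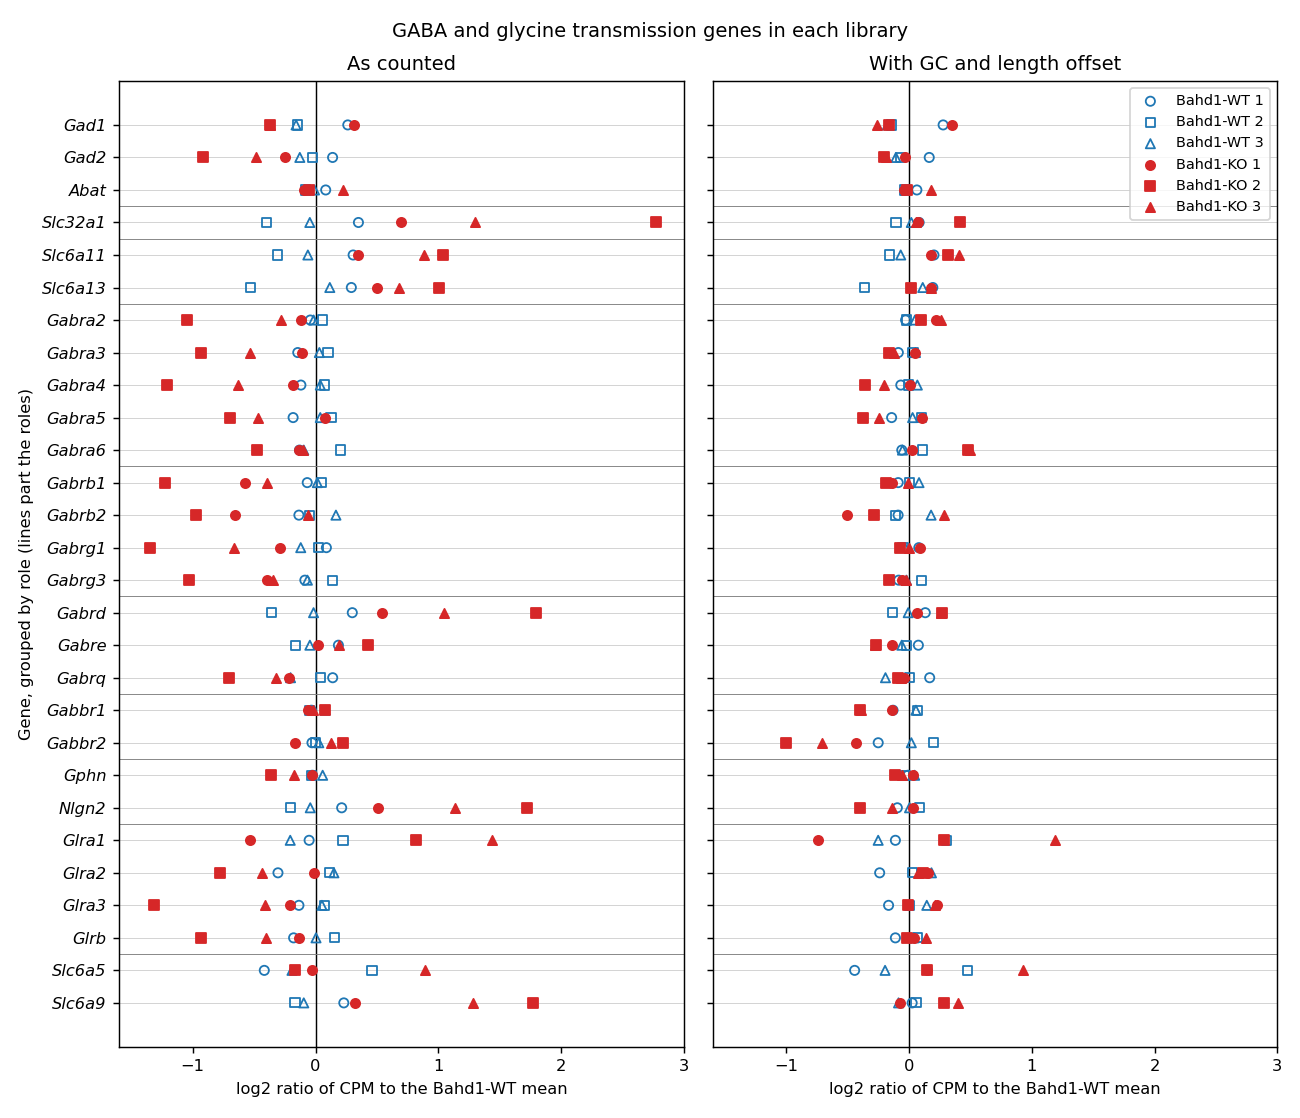
Each member in each library, as the log2 ratio of its CPM to the mean of the 3 Bahd1-WT libraries, as counted (left) and with the GC and length offset (right); open blue symbols are Bahd1-WT, filled red symbols Bahd1-KO, and grey lines part the roles. On the left the GABA-A alpha, beta and gamma subunits lie to the left of 0 in Bahd1-KO replicate 2 and Slc32a1, Gabrd, Nlgn2 and Slc6a9 to the right of it, while on the right most red symbols lie among the blue ones.

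Among the genes for synthesis, breakdown and packing, the direction differed between partners in the same pathway. Gad1 and Gad2 code for the glutamate decarboxylases, the first held mostly in the cell body and the second mostly at nerve endings. Gad1 was at 701, 528 and 523 CPM in Bahd1-WT and 725, 451 and 452 CPM in Bahd1-KO. Replicate 1 was the highest library in both genotypes, and the genotypes overlapped (log2 fold change -0.11 ± 0.23 SE, adjusted p = 0.768, edgeR). Gad2 was at 599.7, 536 and 498 CPM in Bahd1-WT and 458, 288 and 388 CPM in Bahd1-KO. Every Bahd1-KO library was below every Bahd1-WT library as counted (log2 fold change -0.53 ± 0.19, adjusted p = 0.112, edgeR), and the genotypes overlapped with the GC and length offset described below. The ratio of Gad2 to Gad1 per length was 1.113, 1.32 and 1.24 in Bahd1-WT and 0.822, 0.832 and 1.12 in Bahd1-KO, so replicate 3 of Bahd1-KO overlapped the lowest Bahd1-WT value. Abat, the transaminase that breaks GABA down, was at 483, 431 and 453 CPM in Bahd1-WT and 428, 438 and 533 CPM in Bahd1-KO, with no separation (log2 fold change 0.03 ± 0.15).

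Slc32a1, the carrier that fills vesicles with GABA or glycine, had the largest fitted difference of the members as counted. It was at 22.0, 13.1 and 16.7 CPM in Bahd1-WT and at 28.1, 119 and 42.5 CPM in Bahd1-KO. All 3 Bahd1-KO libraries were above Bahd1-WT, replicate 1 by a small margin and replicate 2 by far. The fitted level was 3.65-fold higher in Bahd1-KO (log2 1.87 ± 0.49, adjusted p = 0.0643, edgeR) and, without Bahd1-KO replicate 2, its log2 fold change was 1.03. DESeq2 without a prior on fold changes gave an adjusted p of 0.000898. With the GC and length offset described below, Slc32a1 was at 0.19 ± 0.12 and the genotypes overlapped (adjusted p = 0.394, edgeR). The Slc32a1 gene (chr2:158610767-158615748 in GRCm38, plus strand, 2 exons) shares 24.9% of its exon bases with the antisense gene Gm14205, which had 1, 0 and 0 counts in Bahd1-WT and 0, 3 and 0 in Bahd1-KO, so few reads were assigned to that strand.

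Both GABA transporters of the set had every Bahd1-KO library above Bahd1-WT as counted and overlapped with the GC and length offset described below. Slc6a11 codes for the transporter found mostly on astrocytes, and Slc6a13 for one found mostly in the meninges and at vessels. Slc6a11 was at 236, 154 and 183 CPM in Bahd1-WT and 243, 392 and 352 CPM in Bahd1-KO (log2 fold change 0.78 ± 0.23, adjusted p = 0.0705, edgeR). The lowest Bahd1-KO library was just above the highest Bahd1-WT library, both of them replicate 1. Slc6a13 was at 9.15, 5.17 and 8.10 CPM in Bahd1-WT and 10.6, 15.01 and 11.97 CPM in Bahd1-KO (log2 fold change 0.74 ± 0.26, adjusted p = 0.101, edgeR), again without overlap, and at a log2 fold change of 0.12 ± 0.16 with the offset (adjusted p = 0.720, edgeR). The 7 astrocyte markers summed to between 2896 and 3209 CPM in Bahd1-WT and between 3133 and 3704 CPM in Bahd1-KO, with none at 0, and 4 of them were higher and 1 lower at an unadjusted p under 0.05 (edgeR). The 8 markers of leptomeningeal and perivascular fibroblasts, none at 0, summed to between 135 and 139 CPM in Bahd1-WT and between 103 and 124 CPM in Bahd1-KO. Of these 8, 5 had a fitted value above 0 and 3 below (median 0.19 on the log2 scale), and at an unadjusted p under 0.05 none was higher and 2 were lower (edgeR), so the sum and the median differ in sign. Their part in the result was not tested.

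Of the 12 GABA-A receptor subunits, 10 had a fitted level lower in Bahd1-KO and 2 higher, against 53.4% of all genes lower, and the median of their log2 fold changes was -0.46. All Bahd1-KO libraries lay below all Bahd1-WT libraries in 6 of the 12, against 19.3% of all genes. With the GC and length offset described below, 8 were lower, against 55.25% of all genes. With it, 1 had its libraries apart on the lower side, against 13.6% of all genes. All 5 alpha subunits, which share in the binding site for GABA and in some receptors that for benzodiazepines, were on the lower side as counted, from -0.62 to -0.23 on the log2 scale. Gabra4, a subunit of extrasynaptic receptors in forebrain, was at 165, 188 and 184 CPM in Bahd1-WT and 158, 77.4 and 115 CPM in Bahd1-KO. The genotypes did not overlap, by a narrow margin in replicate 1 (log2 fold change -0.62 ± 0.24, adjusted p = 0.128, edgeR). Gabra2, a synaptic subunit, was at 211, 226 and 215 CPM in Bahd1-WT and 199.7, 105 and 178 CPM in Bahd1-KO, also without overlap (log2 fold change -0.43 ± 0.23, adjusted p = 0.222, edgeR). With the offset Gabra4 overlapped and Gabra2 turned to 0.19. Gabra3, Gabra5 and Gabra6 overlapped between genotypes as counted. Gabra3 was at 243, 288 and 274 CPM against 249.2, 141 and 186 CPM, and Gabra5, the subunit of hippocampal extrasynaptic receptors, at 89.2, 111 and 104 CPM against 107, 62.5 and 73.3 CPM.

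Gabra6, the alpha subunit of cerebellar granule cells, had the smallest fitted difference of the alphas as counted and the largest with the GC and length offset described below (0.35), with 176, 222 and 180 CPM in Bahd1-WT and 175, 139 and 179 CPM in Bahd1-KO (log2 fold change -0.23 ± 0.17, adjusted p = 0.365, edgeR). The 10 granule cell markers, none at 0, summed to between 1060 and 1242 CPM in Bahd1-WT and between 1014 and 1200 CPM in Bahd1-KO, and the sums overlapped. Of these 10, 6 had a fitted value above 0 and 4 below (median 0.21 on the log2 scale), and at an unadjusted p under 0.05, 4 were higher and none was lower (edgeR). Within the 5 listed alpha subunits, Gabra6 made up 32.5%, 34.2% and 30.7% of the summed level per length in Bahd1-WT and 31.7%, 40.0% and 38.6% in Bahd1-KO. Gabra4 made up 12.5%, 11.9% and 12.8% in Bahd1-WT and 11.7%, 9.15% and 10.2% in Bahd1-KO, the one alpha subunit whose share did not overlap. With the offset described below, the Gabra4 share overlapped, at 11.8% to 12.8% in Bahd1-WT and 9.255% to 11.9% in Bahd1-KO.

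The listed beta and gamma subunits had log2 fold changes from -0.70 to -0.51. Gabrb1 was at 223, 242 and 236 CPM in Bahd1-WT and 157, 99.9 and 177 CPM in Bahd1-KO. Its Bahd1-WT libraries lay within a narrow range and all Bahd1-KO libraries were clearly below it, for a level 1.62-fold lower in Bahd1-KO (log2 fold change -0.69 ± 0.21, adjusted p = 0.0778, edgeR). DESeq2 without the prior gave an adjusted p of 0.0451, so Gabrb1 fell by that test on the values as counted. It was at -0.11 ± 0.09 with the GC and length offset and the genotypes overlapped (adjusted p = 0.522, edgeR). Gabrg1 was at 80.9, 77.4 and 70.0 CPM in Bahd1-WT and 62.2, 29.9 and 48.1 CPM in Bahd1-KO (log2 fold change -0.70 ± 0.25, adjusted p = 0.105, edgeR). Gabrg3 was at 38.6, 45.3 and 39.2 CPM against 31.2, 20.1 and 32.4 CPM (log2 fold change -0.56 ± 0.21, adjusted p = 0.118, edgeR). Neither overlapped between genotypes as counted, and both did with the offset, with Gabrg1 at 0.01 ± 0.09 and Gabrg3 at -0.08 ± 0.10. Gabrb2, among the most widely used beta subunits, was at 149, 158 and 184 CPM in Bahd1-WT and 104, 83.3 and 157 CPM in Bahd1-KO, where replicate 3 lay inside the Bahd1-WT range.

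Gabrd, the delta subunit of extrasynaptic receptors in granule cells of cerebellum and dentate gyrus, was the one GABA-A subunit with every Bahd1-KO library above Bahd1-WT. It was at 29.3, 18.5 and 23.5 CPM in Bahd1-WT and 34.6, 82.6 and 49.0 CPM in Bahd1-KO. The fitted level was 2.33-fold higher in Bahd1-KO (log2 fold change 1.22 ± 0.32, adjusted p = 0.0641, edgeR), and it rose by DESeq2 (adjusted p = 0.00351). Its known alpha partners Gabra4 and Gabra6 were on the lower side as counted. With the GC and length offset Gabrd and Gabra6 were on the higher side (0.20 and 0.35) and Gabra4 on the lower (-0.18). Gabre was low in all libraries, at 2.58, 2.02 and 2.20 CPM against 2.30, 3.06 and 2.59 CPM, and overlapped, while the offset turned it from 0.23 to -0.23. Gabrq, the theta subunit, was at 18.9, 17.6 and 14.9 CPM in Bahd1-WT and 14.7, 10.5 and 13.7 CPM in Bahd1-KO, without overlap but with replicates 3 and 1 of the respective genotypes almost equal (log2 fold change -0.40 ± 0.20, adjusted p = 0.203, edgeR).

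Of the 12 GABA-A subunit genes, 11 lie in 4 clusters of neighbours in GRCm38, and Gabrd alone among them does not. On chromosome 5, Gabrg1, Gabra2, Gabra4 and Gabrb1 follow each other, with 114979 bases between the first pair, 473899 between the second, and a head-to-head overlap of 196 bases between Gabra4 and Gabrb1. The 4 log2 fold changes there ran from -0.70 to -0.43. Gabrg3 and Gabra5 on chromosome 7 are 20483 bases apart and were at -0.56 and -0.33, and Gabra6 and Gabrb2 on chromosome 11 are 98684 bases apart and were at -0.23 and -0.51. On chromosome X, Gabra3 and Gabrq were at -0.48 and -0.40 while Gabre, next to Gabra3, was at 0.23. Members of a cluster thus lay on the same side of 0 in 3 of the 4 clusters as counted. With the GC and length offset described below, the clusters on chromosomes 7 and X lay below 0 throughout, and those on chromosomes 5 and 11 held values on both sides. Reads of Gabra4 and Gabrb1 share 46 exon bases on opposite strands, a small part of both.

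**Figure D3:**
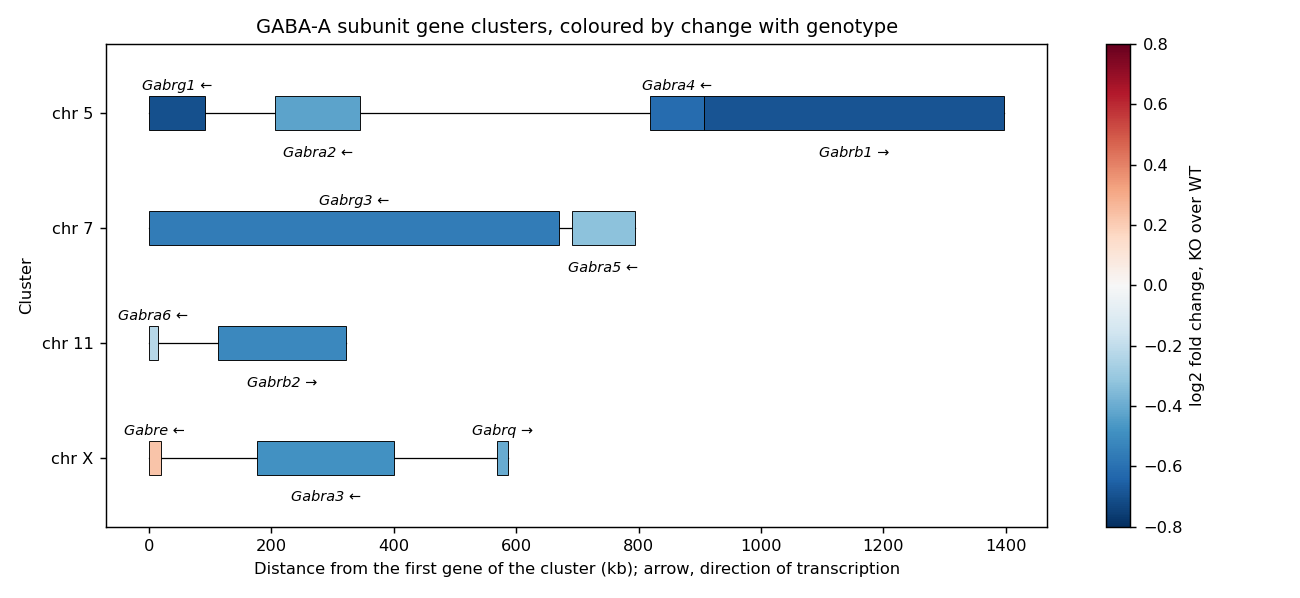
The 4 clusters of GABA-A subunit genes, drawn to scale as distance in kb from the first gene of each cluster, with arrows for the direction of transcription and colour for the log2 fold change of Bahd1-KO over Bahd1-WT (blue lower, red higher). As counted, Gabre, at 0.23, is the only one of the 11 genes on the higher side, and Gabrg1, at -0.70, is the lowest.

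The GABA-B receptor works as a pair of Gabbr1, which binds GABA, and Gabbr2, which couples to the G protein, and both genes overlapped between genotypes as counted, while with the GC and length offset every Bahd1-KO library of both lay below Bahd1-WT, as given below. Gabbr1 was at 751, 743 and 812 CPM in Bahd1-WT and 736, 809.5 and 759 CPM in Bahd1-KO (log2 fold change -0.00 ± 0.14, adjusted p = 0.996, edgeR). Gabbr2 was at 339, 346 and 352 CPM in Bahd1-WT and 308, 403 and 378 CPM in Bahd1-KO (log2 fold change 0.07 ± 0.15, adjusted p = 0.767, edgeR). As counted, in both genes the Bahd1-KO libraries lay on either side of the Bahd1-WT mean.

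Of the organisers of the inhibitory postsynapse, Gphn overlapped and Nlgn2 did not as counted, and with the GC and length offset both overlapped, at -0.05 ± 0.08 and -0.16 ± 0.11 on the log2 scale. Gphn, gephyrin, is the scaffold that holds GABA-A and glycine receptors, and it was at 98.7, 98.1 and 105 CPM in Bahd1-WT and 98.6, 77.9 and 88.7 CPM in Bahd1-KO, with overlap (log2 fold change -0.18 ± 0.15). Nlgn2, the neuroligin of inhibitory synapses, was at 78.9, 59.2 and 66.1 CPM in Bahd1-WT and 96.9, 224 and 150 CPM in Bahd1-KO. All Bahd1-KO libraries were above Bahd1-WT, in the same order of replicates as for Slc32a1 and Gabrd. Its level was 2.31-fold higher in Bahd1-KO (log2 fold change 1.21 ± 0.29), with an adjusted p of 0.0634, the lowest of the members in edgeR, and of 0.00205 in DESeq2.

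Of the 4 glycine receptor subunits, 3 had a fitted value below 0 as counted, against 53.4% of all genes, and none reached an unadjusted p under 0.05 in edgeR. These 3 turned to the higher side with the GC and length offset, Glra2 to 0.12, Glra3 to 0.15 and Glrb to 0.05 on the log2 scale, all with overlapping libraries. Direction differed with the offset in 30.2% of all genes. Glrb, the beta subunit that binds gephyrin, was at 397, 499.6 and 450.0 CPM in Bahd1-WT and 409.7, 235 and 339 CPM in Bahd1-KO. Glra2, the alpha subunit that is prominent in the developing brain, was at 18.1, 24.2 and 24.8 CPM against 22.3, 13.1 and 16.5 CPM. Both overlapped through Bahd1-KO replicate 1. Glra3 was at 30.8, 35.6 and 35.1 CPM in Bahd1-WT and 29.3, 13.6 and 25.4 CPM in Bahd1-KO, the one glycine receptor gene without overlap as counted (log2 fold change -0.57 ± 0.27, adjusted p = 0.180, edgeR). Glra1, the adult alpha subunit of brainstem and spinal cord, went the other way in 2 of 3 libraries. It was at 4.96, 6.01 and 4.46 CPM in Bahd1-WT and 3.56, 9.06 and 14.0 CPM in Bahd1-KO (log2 fold change 0.79 ± 0.42, adjusted p = 0.225, edgeR).

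Of the glycine transporters, Slc6a9 had its libraries apart as counted and Slc6a5 did not. Slc6a9, the transporter found mainly on astrocytes, was at 36.0, 27.3 and 28.7 CPM in Bahd1-WT and 38.4, 105 and 74.5 CPM in Bahd1-KO, for a 2.37-fold higher level (log2 fold change 1.24 ± 0.33, adjusted p = 0.0643 in edgeR and 0.00366 in DESeq2). With the GC and length offset it was at 0.22 ± 0.12 and the genotypes overlapped (adjusted p = 0.355, edgeR). Replicate 1 of Bahd1-KO was close to the highest Bahd1-WT library. Slc6a9 shares 27.8% of its exon bases with Ccdc24 on the opposite strand, which had 13, 6 and 14 counts in Bahd1-WT and 11, 30 and 15 in Bahd1-KO. Slc6a5, the transporter that marks glycinergic neurons, was at 35.3, 64.8 and 41.2 CPM in Bahd1-WT and 46.1, 42.0 and 87.3 CPM in Bahd1-KO, with replicate 2 the highest in Bahd1-WT and replicate 3 in Bahd1-KO (log2 fold change 0.31 ± 0.33). The same 2 libraries had the highest sum of 9 brainstem and spinal markers in their genotype, none at 0: 425, 485 and 451 CPM in Bahd1-WT and 469, 462 and 516 CPM in Bahd1-KO. Of these 9, 7 had a fitted value above 0, and at an unadjusted p under 0.05, 2 were higher and none was lower (edgeR). Replicate 3 of Bahd1-KO was also the highest library for Glra1. The part of brainstem content in these values was not tested.

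Interneurons, some of the cells that release GABA, were checked by 14 markers, which hold no member. None of the 14 genes was at 0 (1 of them, Dlx6os1, has a second row, at 0). Their sum ranged from 689 to 736 CPM in Bahd1-WT and from 751 to 1174 CPM in Bahd1-KO, without overlap. Of the 14, 9 were fitted higher and 5 lower, and at an unadjusted p under 0.05, 4 were higher and none was lower (edgeR). Other listed cells that release GABA are striatal projection neurons and Purkinje cells. The 8 striatal markers summed to 615 to 779 CPM in Bahd1-WT and 672 to 1016 CPM in Bahd1-KO. The 6 Purkinje cell markers summed to 1799 to 1927 and 1576 to 1868 CPM, and both lists overlapped. Slc32a1 was thus highest in the library with the highest interneuron marker sum, Bahd1-KO replicate 2, where Gad1 and Gad2 were at their lowest. The part of the content of any of these cells was not tested. With the offset described next, the median log2 fold change of the interneuron marker list was -0.15, against 0.42 without it.

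Across the 28 members, the change with genotype followed the GC content of the transcript, taken from the longest protein-coding transcript of each gene. Spearman's rho between GC content and log2 fold change was 0.89 over the 28 members and 0.88 over 13810 expressed genes. Both are descriptions, since all genes share the same 6 libraries. All 12 members with at most 45% GC were lower in Bahd1-KO (median -0.52 on the log2 scale), among them Glra3 at 35.2% GC, Gabrg1 at 35.3% and Gabrb1 at 40.9%. Of the 10 members above 52% GC, 9 were higher (median 0.79), among them Slc32a1 at 61.9%, Nlgn2 at 60.7% and Gabrd at 56.8%. Among the GABA-A subunits, Gabrd and Gabre, the 2 on the higher side, were the 2 of highest GC content. The order was not strict among those of low GC content, with Gabra6 at 39.7% GC at -0.23 and Gabrb1 at -0.69. The exception above 52% was Gabbr1, at 53.0% GC and a log2 fold change of -0.00. The median change was -0.61 among expressed genes of 35% GC and 1.68 among those of 61% GC, on the log2 scale.

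**Figure D4:**
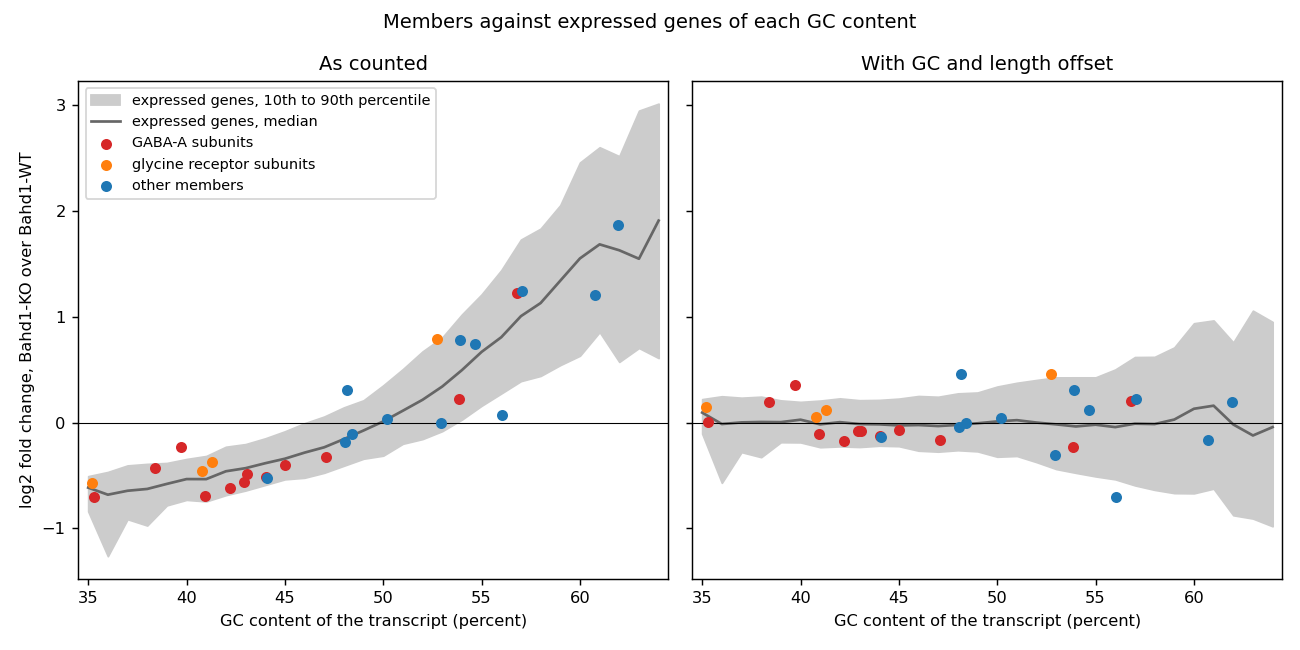
Log2 fold change of Bahd1-KO over Bahd1-WT against the GC content of the transcript, as counted (left) and with the GC and length offset (right). Points are members and the grey line and band are the median and the 10th to 90th percentile of expressed genes at each whole percent of GC. On the left the members climb along the band from about -0.70 at 35.3% GC (Gabrg1) to 1.87 at 61.9% GC (Slc32a1), and on the right they lie around 0 with Gabbr2 lowest, at -0.70.

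The libraries differed in this trend before genotype was considered. Over 13292 expressed genes, Spearman's rho between GC content and a library's deviation from the mean of all 6 was -0.76, -0.84 and -0.81 in Bahd1-WT and -0.19, 0.90 and 0.71 in Bahd1-KO. Bahd1-KO replicate 1, the library nearest to Bahd1-WT here, was also the Bahd1-KO library inside the Bahd1-WT range for the most members, 7 of 28, against 3 for either of the other two. The trend and the genotype point the same way in these 6 libraries, so that a change with genotype along GC content and a difference between libraries along GC content cannot be told apart. To set the members against genes of like composition, edgeR's fit was repeated with an offset for each library, taken from a smooth curve of log2 CPM on GC content and length.

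With this offset, the members moved toward 0. The median size of the change went from 0.50 to 0.15 on the log2 scale, and 22 of 28 members had a smaller change than without it. The split became 14 higher and 14 lower, against 44.75% of all genes higher. Direction changed in 9 members, against 30.2% of all genes, and Spearman's rho with GC content was 0.0005. No member passed an adjusted p of 0.05 (0.0209% of all genes did), while 3 were higher and 2 lower at an unadjusted p under 0.05, against 9.69% and 10.9% of all genes. Gabrd was at a log2 fold change of 0.20 ± 0.11 (adjusted p = 0.323, edgeR) and Nlgn2 at -0.16 ± 0.11 (adjusted p = 0.467, edgeR). The size of the Gabrd value depended on the transcript used for GC content, as given in the last section. Gad2 was at -0.14 ± 0.10 and Gabra4 at -0.18 ± 0.10, both with overlap. The GABA-A subunits then had a median of -0.079, with 8 of 12 lower, against 55.25% of all genes. All 4 glycine receptor subunits were on the higher side, against 44.75% of all genes, from 0.05 to 0.46, all with overlapping libraries.

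**Figure D5:**
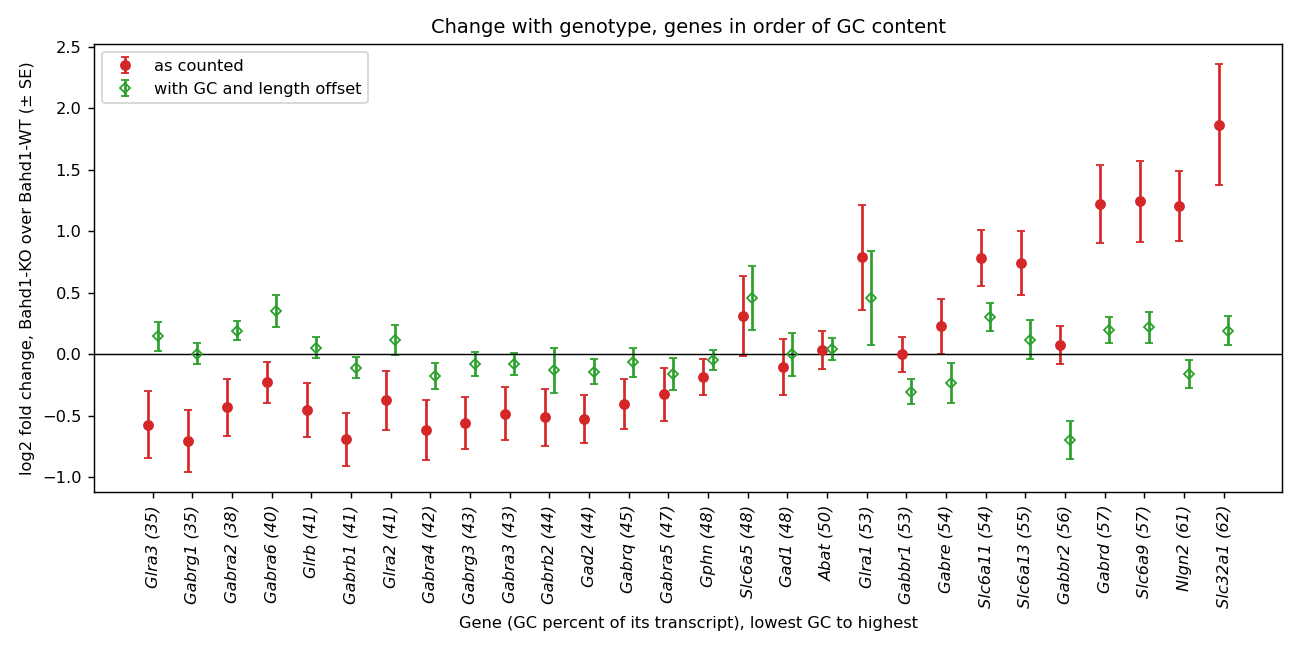
Log2 fold change of Bahd1-KO over Bahd1-WT with its standard error for each member, as counted (filled red) and with the GC and length offset (open green), genes in order of the GC content of the transcript, given in parentheses in percent. The red points rise from left to right, from -0.57 for Glra3 to 1.87 for Slc32a1, and the green points stay within -0.70 (Gabbr2) and 0.46 (Glra1).

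The GABA-B pair overlapped as counted. With the offset, Gabbr2 was at 382, 521 and 460.0 offset-adjusted CPM in Bahd1-WT and 336, 226 and 277 in Bahd1-KO, with every Bahd1-KO library below Bahd1-WT. Its log2 fold change of -0.70 ± 0.15 had the lowest adjusted p of the members, 0.0800 in edgeR. Gabbr1 was at 781, 896 and 889 offset-adjusted CPM in Bahd1-WT and 779, 648 and 652 in Bahd1-KO, also without overlap but with replicate 1 of both genotypes almost equal (log2 fold change -0.30 ± 0.10, adjusted p = 0.139, edgeR). Leaving out one library at a time, Gabbr2 stayed between -0.85 and -0.56 with adjusted p-values from 0.00822 to 0.309 in edgeR. It passed 0.05 only without Bahd1-KO replicate 1, and Gabbr1 did so too, with an adjusted p of 0.0277, in a fit where 10.4% of all genes passed. The median change of expressed genes of 56% GC, the composition of Gabbr2, was 0.81 on the log2 scale as counted, so Gabbr2 at 0.07 was low for its composition.

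On the higher side with the offset were Gabra2, at 168, 169 and 178 offset-adjusted CPM in Bahd1-WT and 200.0, 184 and 205 in Bahd1-KO, and Gabra6, at 151, 169.6 and 152 against 159.7, 220.2 and 223. Gabra2 was the one member with all Bahd1-KO libraries above Bahd1-WT there (11.5% of all genes), and Gabre, Gabbr1 and Gabbr2 were those below (13.6% of all genes). Adjusted p-values were 0.217 for Gabra2 (log2 fold change 0.19 ± 0.08) and 0.168 for Gabra6 (0.35 ± 0.13) in edgeR. Slc6a11 was at 0.30 ± 0.11 with an adjusted p of 0.166.

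The test that the study used, DESeq2, called 7 members at an adjusted p under 0.05 on the same counts: Slc32a1, Slc6a11, Slc6a13, Gabrd, Nlgn2 and Slc6a9 rose and Gabrb1 fell. Of the genes with an adjusted p from DESeq2, 17.7% were called higher and 3.56% lower. With the normal prior and a change of at least 2-fold, 4 members were higher, against 11.9% of genes, and none of 28 lower, against 1.13%. These 4 were Slc32a1, Gabrd, Nlgn2 and Slc6a9, which are also the 4 of highest GC content among the members. Without Bahd1-KO replicate 2, edgeR gave log2 fold changes of 1.03 for Slc32a1, 0.82 for Gabrd, 0.86 for Nlgn2 and 0.88 for Slc6a9, with adjusted p-values of 0.0549, 0.0675, 0.0532 and 0.0800. In edgeR without Bahd1-KO replicate 1, 14 members passed 0.05, 7 in either direction, against 19.5% of all genes higher and 10.1% lower. With no filter beyond 1 count, 6 members passed 0.05 in edgeR, against 11% of all genes, and with total counts as the only scaling 4 passed, against 9.4%.

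Other genes of the inhibitory synapse were read from a list of 41 that holds no member, all of them tested. None passed an adjusted p of 0.05 in edgeR, and at an unadjusted p under 0.05, 10 were higher (24.4%) and 4 lower (9.76%), against 19.9% and 12% of all genes. The median over the 41 was -0.039 on the log2 scale. The 5 with the lowest p on the higher side were Insyn1, a gephyrin-binding protein listed in the table as 6030419C18Rik (log2 fold change 2.54 ± 0.61), Shmt2 (1.45 ± 0.37) and Gldc (0.73 ± 0.23), which act in glycine metabolism, Slc12a5 (0.86 ± 0.23), the chloride exporter of mature neurons, and Iqsec3 (0.66 ± 0.21), a gephyrin partner. Insyn1 was at 21.5, 9.12 and 13.8 CPM in Bahd1-WT and 31.0, 173 and 54.3 CPM in Bahd1-KO, in the same order of replicates as Slc32a1. With the GC and length offset these 5 were at 0.72, 0.34, 0.30, -0.24 and 0.28 in the order named, so Slc12a5 turned, with overlapping libraries. Insyn1, Shmt2, Gldc and Iqsec3 kept every Bahd1-KO library above Bahd1-WT with the offset, as did 11.5% of all genes. Those of low p on the lower side included Slc12a2 (-0.53 ± 0.22), a chloride importer, Kctd12b (-0.57 ± 0.24), of a family of GABA-B auxiliary proteins, Plcl1 (-0.40 ± 0.19, unadjusted p = 0.0618, edgeR) and Gabrp. With the offset Slc12a2 was at -0.15, Kctd12b turned to 0.03 and Plcl1 was at -0.03, all with overlap. Gabrp had 65, 6 and 1 counts in Bahd1-WT and 2, 4 and 1 in Bahd1-KO, so its value rests on Bahd1-WT replicate 1. That library also had the highest sum of 4 lung epithelium markers, 100 CPM against 24.4 and 2.15 CPM in the other Bahd1-WT libraries and at most 1.396 CPM in Bahd1-KO.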

How the data were processed

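Adult brain RNA-seq counts of 3 Bahd1-WT and 3 Bahd1-KO mice were used, grouped by the labels. The authors made stranded polyadenylated libraries, trimmed reads (cutadapt 1.11), aligned them to GRCm38 and counted reads on exons by strand with featureCounts 1.4.6-p3. STAR 2.5.0a is named in the processing notes, and the supplementary methods also name a second aligner and another sequencer. The authors deposited whole-number counts for 53801 genes without normalization. No columns of other samples were present.

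Genes with at least 10 counts in sum were fitted in edgeR 4.0.16 (R 4.3.3): TMM, quasi-likelihood, genotype only, Benjamini-Hochberg over 23975 genes. CPM use TMM-scaled library sizes. DESeq2 1.42.0 was an alternative, with and without the normal prior. Other alternatives were 3 scalings, 2 filters, leaving out each sample, a replicate block, and an offset from natural splines of log2 CPM on GC content (5 degrees of freedom) and log length (3), fitted per library to 13283 genes. Annotation was GENCODE M21 (GRCm38). The fits were also run on simulated counts, with and without a GC trend. That trend came from the same curves as the offset, with the same dispersion for all genes. The run cannot show how well the offset suits the real counts. Depth was 42297150 to 93557948 counts. Errors are standard errors of the fits or SDs over 3 mice.

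The members, gene lists and marker lists were chosen with earlier results of these data known. All members were named by role, and of the pathway list the 5 genes of lowest p in each direction, with some results not reported here.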

Additional observations from a re-analysis of the deposited data

How the results depend on the processing

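No member passed an adjusted p of 0.05 with DESeq2 size factors, upper-quartile factors, filterByExpr, the offset (from either transcript choice) or the replicate block, while 7 did with DESeq2 with or without the prior, 6 with no filter (11% of all genes) and 4 with total counts (9.4%). The cause was not tested. Leaving out one library gave 0 to 14 such members, 5 to 7 higher and 1 to 12 lower at an unadjusted p under 0.05, and medians of -0.30 to -0.12. Members lower at that level numbered 9 with no filter, 2 with total counts and 10 with upper-quartile factors, whose median was -0.34. Shares of all genes at that level were not counted for these settings. With the offset 3 were higher and 2 lower (median 0.0027), with the longest transcript of any type 3 and 2 (median -0.029), and with offset and block 2 and 2 (median -0.0025). For the pathway list, 8 genes passed with DESeq2, 7 with no filter (11% of all genes) and 3 with total counts (9.4%). With DESeq2, 17.7% of the genes with an adjusted p passed on the higher side and 3.56% on the lower. At an unadjusted p under 0.05, 5 of that list were higher and 7 lower with the offset, against 9.69% and 10.9% of all genes. It had 4 higher with the other transcript choice, 3 higher with offset and block and 2 lower with total counts. Its median was -0.17 with upper-quartile factors. Leaving out one library gave 0 to 12 genes passing, 3 to 12 higher, 1 to 8 lower and medians of -0.065 to 0.0041.

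Same-numbered mice did not deviate together over expressed genes (correlations of -0.64, -0.66 and -0.14). Differently numbered mice were at -0.09 to 0.63. Because libraries differ along GC content over these genes, such correlations cannot show whether the numbers pair the samples. The replicate block left 0 members and 0 pathway genes past 0.05, against 0.0292% of all genes. At an unadjusted p under 0.05, 6 members and 9 pathway genes were higher with it, and 5 and 1 lower. In either direction, 21.8% of all genes reached that level. Medians were -0.21 and -0.045, and the block reversed no member.

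Of the 28 members, 23 kept their direction under every setting without the offset. Gabbr1 turned to 0.02 with DESeq2 (0.0196 with the prior) or its size factors, 0.0062 with no filter and 0.0748 with total counts. Upper-quartile factors turned Abat to -0.10 and Gabbr2 to -0.076. Without single libraries Gad1 ranged from -0.34 to 0.046, Abat from -0.062 to 0.12, Gabbr1 from -0.045 to 0.058, Gabbr2 from -0.013 to 0.21 and Slc6a5 from -0.092 to 0.61. Slc32a1 ranged from 1.03 to 2.26, lowest without Bahd1-KO replicate 2 and highest without replicate 1.

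The offset turned Gabra2 to 0.19, Gabra6 to 0.35, Gabrg1 to 0.0058, Gabre to -0.23, Gabbr2 to -0.70, Nlgn2 to -0.16, Glra2 to 0.12, Glra3 to 0.15 and Glrb to 0.054. With the replicate block added these were 0.192, 0.337, 0.0056, -0.229, -0.705, -0.169, 0.125, 0.148 and 0.0547. With the offset from the longest transcript of any type, chosen after seeing the data, Gad1 was at 0.0276, Abat -0.0135, Gabra2 0.158, Gabra6 0.296, Gabre -0.288, Gabbr2 -0.714, Nlgn2 -0.165, Glra2 0.0684, Glra3 0.107 and Glrb 0.0061. Gabrd moved from 0.20 to 0.48 between these offsets. With the offset and one library left out, fits also added after seeing the data, Gabbr2 was at -0.85, -0.56 and -0.69 without Bahd1-KO replicates 1, 2 and 3 and at -0.81, -0.59 and -0.69 without those of Bahd1-WT. The lowest count of any member in any library was 100, for Gabre.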
